A study of Mus musculus with 12 samples.

Results

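The wild-type olfactory mucosa of the mouse was described from 6 libraries, 1 for each of 6 male animals at postnatal day 30 on a mixed 129S6;C57BL/6J background. A gene was taken in when the mean of its 6 normalised read counts was at least 10, and 17225 of 39395 genes listed with complete values met that rule. The level itself therefore chose the genes, and the levels below are given as a description without a test. The 6 animals carry the wild-type genotype and no agent is named. The series also holds 6 age-matched animals with a large deletion on chromosome 7, meant to remove an enhancer of class I odorant receptor genes, which entered none of the values here. The tissue was dissected whole, so each library mixes neurons, supporting cells, glands, glia, blood and some bone, and in such bulk RNA fewer cells of a type and less RNA per cell cannot be told apart.

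The olfactory mucosa carries the sense of smell. Each mature olfactory sensory neuron chooses 1 odorant receptor gene from a large family (Olfr genes in the mouse), and odorant binding to that receptor raises cyclic AMP through the G protein subunit Gnal and the adenylyl cyclase Adcy3, which opens a channel formed by Cnga2, Cnga4 and Cngb1. Sustentacular cells surround the neurons and are rich in cytochrome P450 enzymes, basal cells renew the neurons through life, and Bowman's glands and nearby nasal glands secrete mucus with odorant-binding proteins, which are small carrier proteins of the lipocalin family.

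The libraries held 13942401 to 18044908 reads each, and 65.2% to 69.3% of the listed genes had a read in a given library. Of the genes below the rule, 6971 had no read in any library and 15199 had a mean above 0 but under 10. The genes taken in held 99.8% of the reads. Among them, 15821 were at 10 or more in all 6 libraries and 15 had no read in at least 1. The genes nearest the limit were Gls2, Gm14567 and Gja4 on the inside (each with a mean of 10.01) and Gm45515, Olfr1462 and Gm2238 on the outside (9.996, 9.996 and 9.992). The male label was checked against the X-inactivation RNA Xist, whose highest value was 7.36, and the Y-linked gene Kdm5d, whose lowest was 628.

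Reads were spread very unevenly over genes. The 10 most abundant genes held 15.3% ± 1.72 of the reads (SD, n = 6), the 100 most abundant 27.2% ± 2.20, and the 1000 most abundant 52.2% ± 1.53. The 106 genes with a mean of at least 10000 held 27.6% of the reads, while the 5806 genes between 10 and 100 held 1.496%. The median over all genes taken in was 248 normalised reads. Genes annotated as protein-coding took 84.8% ± 1.85 of the reads, with replicate 4 lowest at 81.0% and the other replicates between 85.0% and 86.0%.

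**Figure D1:**
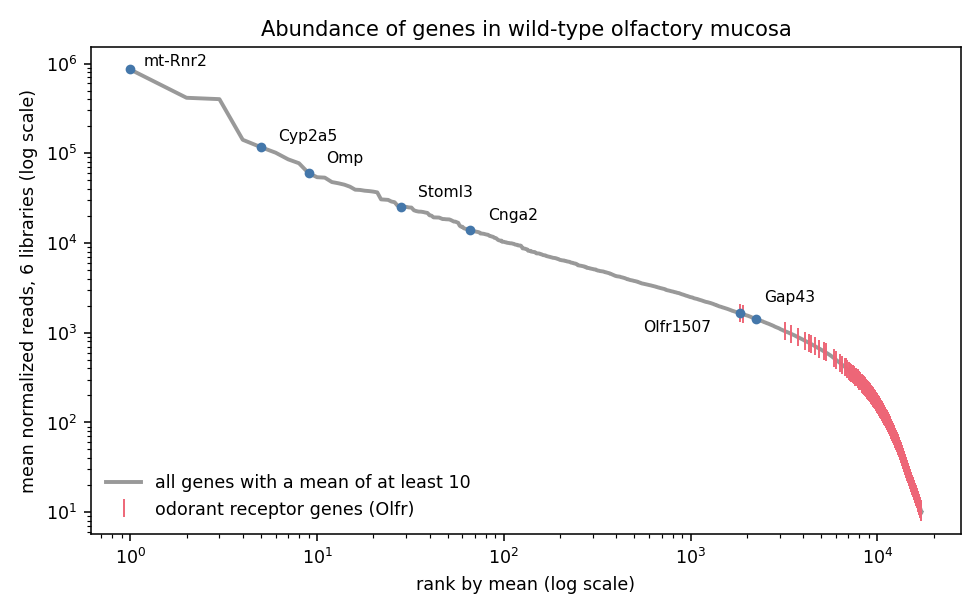
Mean normalised read count over the 6 wild-type libraries against rank for the 17225 genes with a mean of at least 10, both on log scales, with odorant receptor genes as red ticks and named genes as blue points. Marker genes of the neurons and of supporting cells lie at the top, while the highest receptor, Olfr1507, has a mean of 1657 and most receptors lie under 123.

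Ribosomal and other non-coding RNA came first: mt-Rnr2 and mt-Rnr1, the ribosomal RNAs of the mitochondrion, had means of 858730 ± 100327 and 141425 normalised reads, the 18S ribosomal RNA copy Rn18s-rs5 415592 and the small nuclear RNA Rn7sk 401250. The nuclear long RNA Malat1 followed at 85650 ± 15204. Messenger RNAs among the first 10 included the cytochrome P450 gene Cyp2a5 (117071 ± 17539), the mitochondrial oxidase subunit mt-Co1 (101550), the olfactory marker protein gene Omp (60163 ± 9286) and Bpifa1, a secreted protein of the airway surface (54121 ± 7259). Genes of the mitochondrial chromosome, of which 13 of the 14 listed were taken in, held 7.70% ± 0.759 of all reads, from 6.54% in replicate 5 to 8.49% in replicate 6. On the scale of reads per kilobase of exon, short RNAs such as Gm23935, Gm24270 and Gm22513 moved up, and the messenger RNAs among the first 20 were mt-Co1, Cyp2a5, S100a5, Scgb1c1, Bpifa1, Gm14744, Obp2a and Obp1a. S100a5, a calcium-binding protein of olfactory neurons, had 24063, 21257, 26413, 27076, 15178 and 17130 normalised reads in replicates 1 to 6, and replicates 5 and 6 lay below the other replicates.

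The label of the tissue was checked against 7 markers of its cells, and all 7 were abundant in all 6 libraries. Omp, which marks mature sensory neurons, had 61948, 60269, 55838, 77020, 56195 and 49705 normalised reads in replicates 1 to 6. Replicate 4 was highest and replicate 6 lowest, a 1.55-fold span. Cnga2, the main subunit of the olfactory cyclic-nucleotide-gated channel, had 14808, 14675, 13136, 15358, 13909 and 11530, and Gnal, the stimulatory G protein subunit of the odour response, had 31926, 34138, 31224, 30428, 29228 and 26946. Both were lowest in replicate 6 as well. Cnga2 was highest in replicate 4, as Omp was, and Gnal in replicate 2. Stoml3, a stomatin-like protein of olfactory cilia, had a mean of 25496 ± 2373 and Umodl1, an uromodulin-like gene of olfactory neurons, 15184 ± 1654. Gap43, a growth cone protein of immature neurons, stood at 1413 ± 122 and Cyp2g1, a cytochrome P450 of sustentacular cells and Bowman's glands, at 46326 ± 5437.

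The rest of the transduction cascade was present at lower levels. Per kilobase of exon, Omp stood at 28061 normalised reads, Stoml3 at 11859, Cnga2 at 4492, Rtp1 at 3059, Umodl1 at 2924, Gnal at 2743 and Rtp2 at 2542. Rtp1 and Rtp2 carry odorant receptors to the cell surface. Adcy3, the adenylyl cyclase, stood at 1395 per kilobase, the calcium-activated chloride channel Ano2 at 1153, and the channel subunits Cnga4 and Cngb1 at 1789 and 508, so that over equal exon length Cnga2 was listed above its partner subunits. Kirrel2, an adhesion protein of olfactory axons, had 12154 normalised reads in replicate 1, 6973 in replicate 2 and 9245 to 9808 in the other replicates. All 17 genes of the mature neuron list were taken in.

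Marker lists of 23 cell types and gene classes were then summed per kilobase of exon in each library. The list of odorant-binding and other secreted proteins was highest at 251426 ± 63068, followed by the sustentacular list at 122926 ± 15595, the mature neuron list at 66772 ± 6991 and 9 widely expressed genes at 50979 ± 3111. With each library's values scaled to sum to 1000000, the same lists came to 34084, 16784, 9140 and 6994. The secreted list counts Cyp2g1 as well, which the sustentacular list also holds. The order of lists depends on how many genes each holds and how abundant its members are, and is no measure of cell number. Bowman's gland genes came to 41327 ± 4761, of which Bpifa1 gave most at 35029. Immature neuron genes came to 9636 ± 580 and the list of globose basal cells and neuronal precursors to 1898 ± 150, in which the highest library was 1.18 and 1.25 times the lowest. On the scale summing to 1000000 these spans were 1.35-fold and 1.64-fold, and replicate 4, highest per kilobase for the immature neuron list, was lowest for both. The mature neuron list was likewise highest in replicate 4 per kilobase (78396) and lowest there on the other scale (8044). Among precursors, the transcription factor gene Neurog1 had 67.0, 50.7, 54.4, 54.7, 59.0 and 81.9 normalised reads. Replicate 6 was highest for it and also for Insm1, at 1127 against 823 to 906 in the other replicates.

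**Figure D2:**
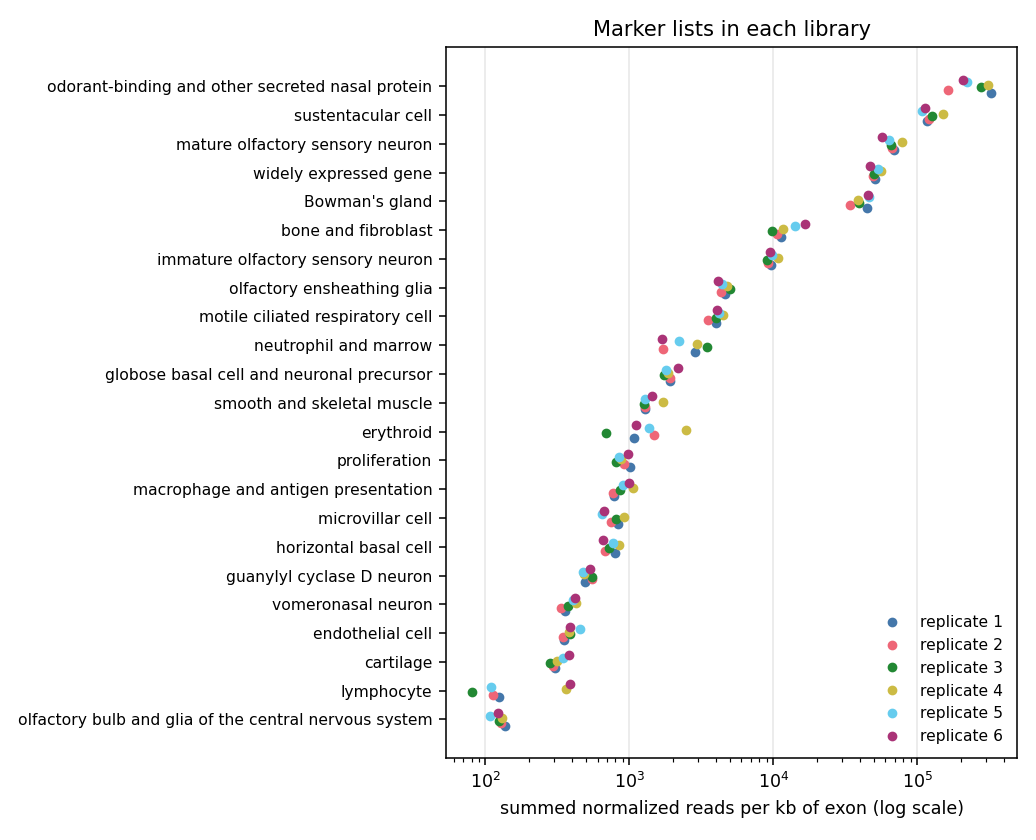
Summed normalised reads per kilobase of exon for each marker list (rows) in each of the 6 wild-type libraries (colours), on a log scale. Of 23 lists, 18 span less than 1.5-fold between libraries, while the bone and fibroblast list spans 1.69-fold, the secreted list 2.00-fold, the neutrophil and marrow list 2.06-fold, the erythroid list 3.58-fold and the lymphocyte list 4.79-fold.

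Lists of cells outside the olfactory epithelium ranged from narrow to wide spans between libraries. The bone and fibroblast list came to 12315 ± 2535, with the collagen genes Col1a1 (39026 ± 9862 normalised reads) and Col1a2 (36672 ± 7847) as its main members. Col1a1 had 34352, 31127, 29187, 37515, 48097 and 53881 in replicates 1 to 6, so replicates 5 and 6 were highest, as they were for Col1a2. Col3a1, Sp7, Ibsp and Alpl were highest in the same replicates, whereas Dcn, Lum, Bglap and Bglap2 were not. Dcn was highest in replicate 1 (5321) and lowest in replicate 5 (3773). The adult globin genes were present at low levels: Hbb-bs had 559.9, 780.3, 374, 1308, 717 and 569 normalised reads, highest in replicate 4 and lowest in replicate 3, and the 7-gene erythroid list ran in the same way from 685 to 2452 per kilobase. The antibody genes Igha, Igkc and Jchain were high in replicates 4 and 6. Igha, the constant region of IgA, had 164 and 134 normalised reads there and 8.44 to 20.9 in the other replicates, and Igkc had 124.5 and 136 against 27.2 to 35.2. Of the other T and B cell genes of the same list, Ighm (55.4) and Cd4 (13.8) were taken in, and Cd3e, Cd8a and Cd79a were under 10 in mean. The neutrophil and marrow list came to 2485 ± 728 per kilobase, of which Ltf, also held by the Bowman's gland list, gave 1795. Ltf and Lcn2 were highest in replicate 3, as the list was. Ngp and Camp were lowest there, at 3.75 and 0.938 normalised reads, and S100a8 and S100a9 were neither. The span of this list is therefore mainly that of Ltf. Motile cilia genes of respiratory epithelium came to 4046 ± 307, led by the master regulator Foxj1 with 2008 ± 270 normalised reads.

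Of 8 genes listed for the olfactory bulb and glia of the central nervous system, 5 were taken in, with Mbp, a myelin protein, at 591 ± 45.7 normalised reads, the transcription factor Eomes at 138 ± 26.7 and Gad2 at 79.4 ± 16.6. Of 6 genes held for vomeronasal neurons, the G protein subunits Gnao1 (1684 ± 83.9) and Gnai2 (879.5 ± 150.1) were taken in, which many other cells also use. Tbr1 and Gfap, also taken in from the olfactory bulb and glia list, had 8.15 to 28.6 and 12.6 to 20.9 normalised reads. The markers of these tissues that were not taken in had means under 10. Slc32a1, the vesicular transporter of inhibitory neurons, and Vmn1r15, a vomeronasal receptor, had no read in any library, which allows at most 3 reads a library by counting error alone, and Gad1 and Mog had means of 4.37 and 0.895. Of 163 vomeronasal type 1 receptor genes listed, 1 was taken in (Vmn1r4, mean 20.6), and none of 170 type 2 genes or 33 bitter taste receptors was. Among trace amine-associated receptors, which detect volatile amines in a small set of olfactory neurons, 12 of 16 were taken in, with Taar7b highest at 348 ± 93.2. Gucy2d, the guanylyl cyclase of a separate class of olfactory neuron, had 62.8 to 107 normalised reads. Prol1 of the gland list had no read in any library.

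Odorant receptor genes were numerous and individually low. The gene annotation used names 1407 Olfr genes, and those not listed are missing from every receptor count, share and sum given here. Of 1266 listed Olfr genes, 971 were taken in, 216 were above 0 but under 10, and 79 had no read in any library. Together they held 0.663% ± 0.0726 of the reads, with replicate 2 highest at 0.748% and replicate 4 lowest at 0.554%. The median receptor taken in had 68.8 normalised reads, the quartiles were 36.6 and 123, 13 were at 500 or more and 3 at 1000 or more. Per kilobase of exon the median was 21.6, against 85.5 for the 13643 other protein-coding genes taken in, of which 19.2% lay below the receptor median. The receptors summed to 1.11 ± 0.182 times the Omp level on that scale, from 0.783 in replicate 4 to 1.30 in replicate 6. By annotation, the receptor genes taken in were 959 of 1071 annotated as protein-coding (89.5%) against 12 of 195 annotated as pseudogenes (6.15%).

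**Figure D3:**
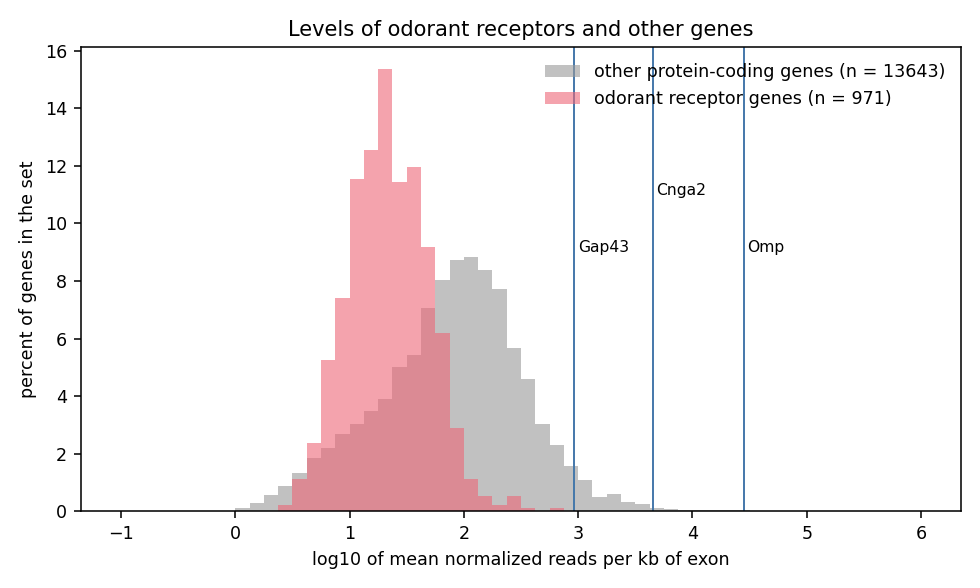
Distribution of the mean normalised read count per kilobase of exon (log10 scale) for the 971 odorant receptor genes and the 13643 other protein-coding genes with a mean of at least 10, as a percentage of each set, with Gap43, Cnga2 and Omp as vertical lines. The receptor median of 21.6 lies below the other genes' median of 85.5, and all receptors lie below Gap43.

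The most abundant receptor was Olfr1507 on chromosome 14, with 1880, 2083, 2607, 976, 1325 and 1073 normalised reads in replicates 1 to 6. Replicates 1 to 3 were all above replicates 4 to 6. Olfr536 on chromosome 7 followed with 1857, 1818, 1981, 1441, 1331 and 1330, the same split with a narrower gap. Olfr727, a neighbour on chromosome 14, had 1219, 960.2 and 1124 in replicates 1 to 3 but 298, 644 and 258 in replicates 4 to 6. The others of the 10 highest were Olfr166 (1040 ± 230.3), Olfr728 (969.9 ± 219), Olfr309 (887), Olfr533 (807), Olfr1226 (776), Olfr15 (709) and Olfr124 (665). All 10 had their lowest value in replicate 4, 5 or 6, 7 had their highest in replicate 3, and for 8 the replicates 1 to 3 were the 3 highest. Replicates 4, 5 and 6 together also hold the lowest value of 55.5% of all 11419 genes with a mean of at least 100, and replicate 3 the highest of 15.5%. How many of these genes have replicates 1 to 3 as the 3 highest was not counted. Of all 334 receptors with a mean of at least 100, replicate 3 was highest for 79 and replicate 2 for 84. The lowest value was in replicate 5 for 120 (35.9%, against 22.6% of all such genes) and in replicate 4 for 92 (27.5%, against 19.3%). The median receptor stood at 0.869 times its own mean in replicate 5, at 0.915 in replicate 4 and at 1.11 in replicate 2. The labels give no batch for these libraries, and what goes with this order was not tested.

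Class I receptors, the older branch of the family, lie in 1 cluster on chromosome 7. Of 145 listed, 119 were taken in, with a median of 71.3 normalised reads against 67.5 for the 852 class II receptors taken in. The highest were Olfr653 (363 ± 47.6), Olfr665 (343 ± 53.6) and Olfr672 (258). They made up 8.62% of the receptor reads in replicate 2, 8.74% in replicate 3, 10.2% in replicate 4, 11.1% in replicate 1, 11.7% in replicate 6 and 12.1% in replicate 5. Whether the classes differ in their order of libraries was not tested. The median class I receptor with a mean of at least 100 (n = 38) stood at 1.15 and 1.12 times its own mean in replicates 1 and 6, while the median class II receptor (n = 296) stood highest, at 1.12, in replicate 2 and at 0.847 in replicate 5. Nqo1, an enzyme of dorsal olfactory neurons, had 6388, 5699, 4391, 5824, 4861 and 6656 normalised reads, with replicates 1 and 6 highest. By chromosome, the receptors of chromosome 2 held 26.8% of the receptor sum, those of chromosome 7 held 21.5%, of chromosome 9 held 9.57% and of chromosome 14 held 7.76%.

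The spread of receptor genes between libraries was set beside that of other genes, as a description without a test. The coefficient of variation (CV) left after subtracting counting error had a median of 0.169 over receptors and 0.0942 over all genes taken in. Within the quartiles of the receptor levels, 36.6 to 123 normalised reads, it was 0.166 for 485 receptors and 0.117 for 1970 other protein-coding genes. Among genes with a mean of at least 100, the highest library was at least 2 times the lowest for 63 of 334 receptors (18.9%) and for 286 of 11085 other genes (2.58%). These sets were not matched for level, and counting error was not subtracted. Only 13 of the 334 receptors were at 500 or more, and low counts reach 2-fold more easily. The size of the gap between these shares can therefore not be read as a difference in variation. Olfr183 and the pseudogene Olfr175-ps1, both on chromosome 16, were highest in replicate 3, at 300.04 and 180.02 against at most 197 and 109 in the other replicates. Olfr107 and Olfr1204 were lowest in replicate 4, at 57.0 and 34.9 against at least 124 and 69.3.

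The promoters of the abundant genes were read next to these levels, to show where sets of genes that stood together in level also shared short motifs. The sequences are from RefSeq on GRCm38.p6 and run from 250 bases before to 50 after the annotated start, on the gene's strand. Below are Cnga2 (chrX:71991599-71991898, plus strand), Olfr536 (chr7:140507269-140507568, minus strand) and Olfr1226 (chr2:89193983-89194282, minus strand). Capitals mark CCCNNGGG, a core to which factors of the Ebf family bind, in Cnga2 and Olfr536, and the TATA box letters TATAAA in Olfr1226.
Cnga2: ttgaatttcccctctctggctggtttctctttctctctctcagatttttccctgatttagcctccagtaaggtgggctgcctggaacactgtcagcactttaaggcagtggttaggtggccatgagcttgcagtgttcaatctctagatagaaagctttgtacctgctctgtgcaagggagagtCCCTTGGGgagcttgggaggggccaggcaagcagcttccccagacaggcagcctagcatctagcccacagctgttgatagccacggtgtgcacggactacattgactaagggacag
Olfr536: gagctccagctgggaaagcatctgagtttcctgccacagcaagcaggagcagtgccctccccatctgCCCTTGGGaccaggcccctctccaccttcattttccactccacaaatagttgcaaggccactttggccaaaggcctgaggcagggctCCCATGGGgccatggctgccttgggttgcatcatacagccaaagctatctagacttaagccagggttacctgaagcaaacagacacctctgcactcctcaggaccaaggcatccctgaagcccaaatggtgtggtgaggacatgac
Olfr1226: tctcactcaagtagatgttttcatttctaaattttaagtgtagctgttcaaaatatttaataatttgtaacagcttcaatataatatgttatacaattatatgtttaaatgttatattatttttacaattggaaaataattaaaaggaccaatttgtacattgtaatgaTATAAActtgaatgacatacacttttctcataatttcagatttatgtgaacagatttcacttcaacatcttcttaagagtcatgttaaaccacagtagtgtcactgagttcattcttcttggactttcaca
Motifs were counted on both strands anywhere in the 300 bases, in 1 promoter for each of 27025 genes. CCCNNGGG was present in 8 of 15 promoters held for the mature neuron list (53.3%), in 13.5% of all promoters and in 3.07% of 944 Olfr promoters. TATAAA was present in none of the 15, in 14.1% of all and in 41.0% of the Olfr promoters. In the 11231 promoters of genes taken in that are not receptors, CCCNNGGG was present in 18.3% and TATAAA in 7.65%. On the gene's own strand from 50 to 11 bases before the start, where a TATA box usually lies, the letters were in 1.80% of the Olfr promoters and 2.67% of all. The homeodomain-type core TAATGA was in 28.7% of the Olfr promoters and 10.02% of all. The Olfr promoters are also richer in A and T, with a median of 65.0% against 47.3%, and the mature neuron list is poorer, at 42.3%. A match is only a description of letters in this window. Where the annotated start of a receptor is that of its coding sequence, the window lies beside coding bases and may miss the promoter. The 50 bases of Olfr1226 from its annotated start begin with atg, as a coding sequence does. Its TATAAA therefore cannot be read as part of a promoter. How many Olfr genes have such a start was not counted, so the Olfr shares cannot be read as shares of true promoters. Receptors taken in and receptors below 10 held TAATGA in 28.2% of 787 and 31.2% of 157 promoters.

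Among the 15 gene families summed, the lipocalins and odorant-binding proteins, secreted by the nasal glands, had the highest median CV between libraries after subtracting counting error. The 10 lipocalin genes taken in, which include odorant-binding proteins and a major urinary protein, each had a CV over 0.25, and 9 of the 10 were lowest in replicate 2. Obp2a had 39251, 6291, 28654, 25312, 16602 and 17961 normalised reads in replicates 1 to 6, and its neighbour Obp2b had 29295, 2560, 19702, 16572, 6238 and 16763. Both were highest in replicate 1 and lowest in replicate 2, by 6.24-fold and 11.4-fold. Lcn3 (9126 to 679) and Lcn4 (5253 to 442) on the same chromosome had their highest and lowest values in the same 2 libraries. The X-linked gene Obp1a had 27325, 7595, 28923, 43275, 15846 and 9940, and Gm14744, also X-linked, 33867, 9773, 33940, 45870, 17959 and 10509. These had their highest value in replicate 4 and were low in both replicates 2 and 6. Mup4, a urinary-type lipocalin on chromosome 4, had 15190 in replicate 1 and 3243 to 9500 in the other replicates.

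**Figure D4:**
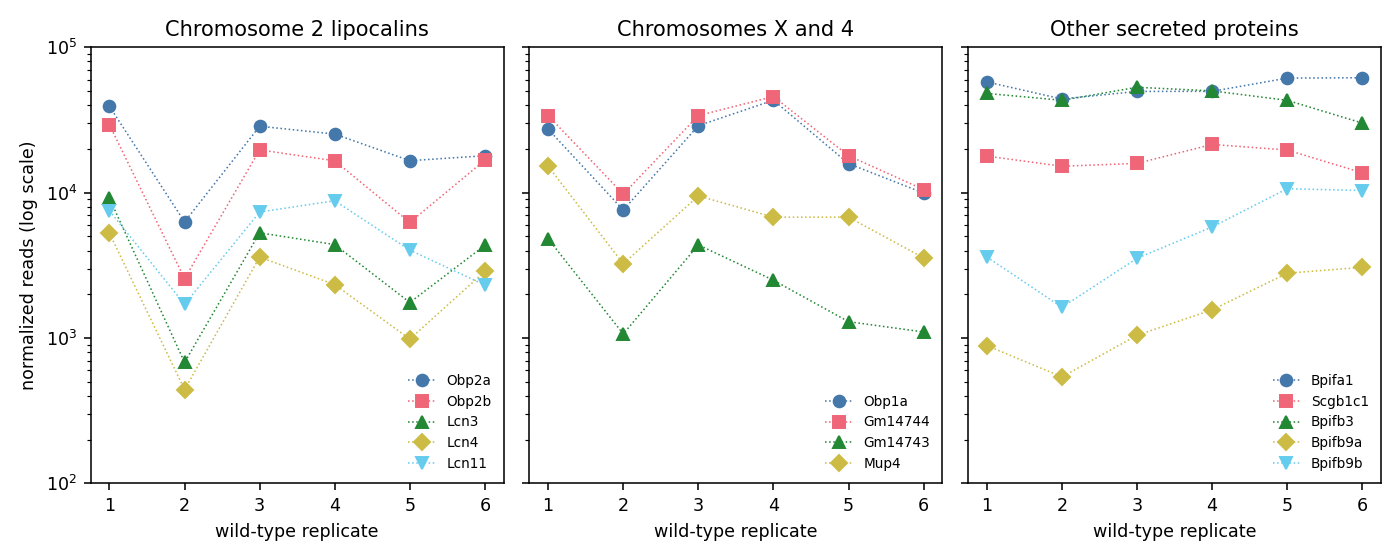
Normalised reads (log scale) of secreted protein genes in wild-type replicates 1 to 6, in 3 panels. Dotted lines join the values of 1 gene and imply no order. Nearly all lipocalins in the left and middle panels dip in replicate 2, where Obp2a stands at 6291, whereas Bpifa1, also lowest there, spans only 44126 to 61792.

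Of the 18 genes of the secreted list, lipocalins included, 12 were lowest in replicate 2, where 20.6% of all genes with a mean of at least 100 had their lowest value. Bpifa1 had 57790, 44126, 49756, 49814, 61446 and 61792 and Scgb1c1, a secretoglobin, 13701 to 21482, and both spanned less than the lipocalins. Bpifb9a and Bpifb9b, members of the same BPI-fold family as Bpifa1, were lowest in replicate 2 and highest in replicates 5 and 6: Bpifb9b had 3610, 1626, 3536, 5810, 10655 and 10343. Dmbt1, a secreted scavenger receptor protein, had 10169, 887, 7174, 3726, 1015 and 5448, with replicates 2 and 5 low as for Lcn3. Klk1, a kallikrein protease of glands, had 15.5 in replicate 2 and 315 to 553 in the other replicates. Of the gland genes outside these families, the water channel gene Aqp5 had 1974 in replicate 2 against 2461 to 2965 in the other replicates, and the mucin gene Muc5b was highest there, at 11108 against 6469 to 9447. The part of gland content in these values was not tested.

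The promoters of 3 odorant-binding genes are shown because these genes vary widely and are all lowest in replicate 2. Obp2a and Obp2b are highest in replicate 1 and Obp1a in replicate 4, so they do not vary together throughout. Cyp2a5, an abundant and steadier gene, is given for comparison. Capitals mark TATAAA. The intervals on GRCm38.p6 are chr2:25699824-25700123 (plus strand) for Obp2a, chr2:25736757-25737056 (plus) for Obp2b, chrX:78091325-78091624 (minus) for Obp1a and chr7:26835089-26835388 (plus) for Cyp2a5.
Obp2a: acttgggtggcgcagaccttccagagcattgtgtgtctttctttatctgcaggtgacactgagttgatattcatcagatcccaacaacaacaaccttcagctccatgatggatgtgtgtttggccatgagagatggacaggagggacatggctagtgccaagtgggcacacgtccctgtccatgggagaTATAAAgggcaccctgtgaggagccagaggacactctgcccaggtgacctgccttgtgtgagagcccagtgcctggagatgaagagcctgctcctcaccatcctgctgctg
Obp2b: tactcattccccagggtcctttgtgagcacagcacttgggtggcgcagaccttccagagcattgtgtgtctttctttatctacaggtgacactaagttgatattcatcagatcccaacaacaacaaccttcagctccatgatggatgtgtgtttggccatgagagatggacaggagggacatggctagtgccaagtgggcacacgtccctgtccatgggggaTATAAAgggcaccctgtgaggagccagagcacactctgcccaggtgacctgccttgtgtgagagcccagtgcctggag
Obp1a: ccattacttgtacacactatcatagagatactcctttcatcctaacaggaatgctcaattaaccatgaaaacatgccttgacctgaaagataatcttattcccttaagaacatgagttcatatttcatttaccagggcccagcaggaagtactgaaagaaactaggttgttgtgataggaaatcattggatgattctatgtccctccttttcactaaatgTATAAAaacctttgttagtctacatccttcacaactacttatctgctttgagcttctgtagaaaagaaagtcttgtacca
Cyp2a5: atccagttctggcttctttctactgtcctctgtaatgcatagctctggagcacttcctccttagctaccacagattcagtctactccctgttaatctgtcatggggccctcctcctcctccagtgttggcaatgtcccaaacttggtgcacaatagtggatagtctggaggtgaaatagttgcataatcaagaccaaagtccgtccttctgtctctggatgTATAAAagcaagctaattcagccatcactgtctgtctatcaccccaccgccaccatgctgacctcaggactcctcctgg
TATAAA begins 28 bases before the annotated start in Obp2b, 30 in Obp1a, 29 in Cyp2a5 and 61 in Obp2a. The gene model used for the levels starts Obp2a at chr2:25700043, closer to these letters. The distance of 61 therefore depends on the annotation chosen. Over 126 bases aligned on those letters without gaps, Obp2a and Obp2b are identical at 124 (98.4%), and Obp2a and Obp1a at 37 (29.4%). Near-identical copies of this kind may share reads, so the separate values of Obp2a and Obp2b are uncertain. TATAAA was present in 9 of 17 promoters held for the secreted list (52.9%), against 14.1% of all promoters. The sustentacular list held it in 5 of 10 promoters (50%), and Cyp2a5 has it as well.

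Over all genes the libraries were close. Among the 11419 genes with a mean of at least 100, the median CV was 0.0980, 378 genes were over 0.25 and 55 over 0.5. The median absolute log2 ratio between 2 libraries ran from 0.10 (replicates 1 and 3) to 0.22 (replicates 2 and 4). Replicate 4 stood farthest from the rest, with a mean of 0.19 against the other libraries, and it was the highest of 6 for 33.7% of the genes. Counting error alone gives a CV of 0.315 at 10 normalised reads, 0.0996 at 100 and 0.0315 at 1000, so genes near the lower limit cannot be ranked by their variation. The steadiest genes with a mean of at least 1000 were Zmynd11 (2195, 2203, 2195, 2262, 2220 and 2223), Usp3, Anapc4, Ttc9, Pck2, Dyrk1a, Cs, Rab11fip1, Akap8 and Hdgf, and for 9 of them the spread was no larger than counting error.

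**Figure D5:**
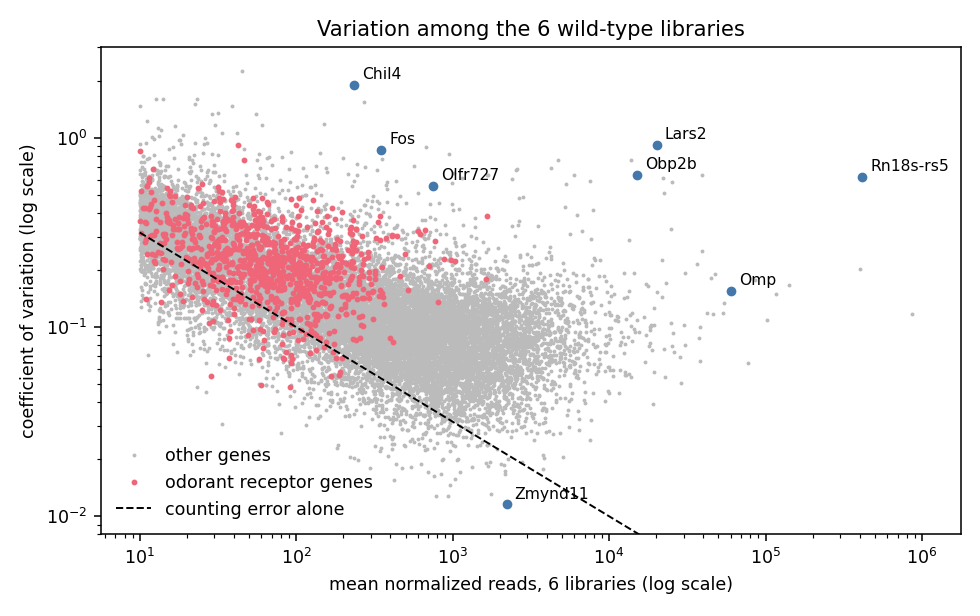
Coefficient of variation over the 6 wild-type libraries against mean normalised reads, both on log scales, for odorant receptor genes (red) and other genes (grey) with a mean of at least 10. The dashed line is the CV from counting error alone, and named genes are in blue. Zmynd11 lies below the line, while Chil4, Lars2, Fos and Rn18s-rs5 lie far above it.

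Some of the most variable genes stood apart in 1 library. Chil4, a chitinase-like protein of inflamed airway epithelium, had 2.09, 30.3, 15.0, 72.2, 1129 and 154 normalised reads, whereas the related Chil6 was steady at 16227 to 20055. Lars2, a mitochondrial leucyl-tRNA synthetase gene, had 57968 in replicate 4 and 11518 to 13574 in the other replicates. Rn18s-rs5 (915053 in replicate 4, 191759 to 409456 otherwise), Mir6236 (35162 against 7588 to 11935) and Gm15564 (2528 against 545 to 801) stood apart in the same library. Ribosomal RNA was removed before sequencing, and whether that step left more of it in replicate 4 was not tested.

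Fos, an immediate early gene that neurons and other cells switch on soon after a stimulus, had 229, 103, 688, 237, 770.1 and 78.1 normalised reads, with replicates 3 and 5 highest. Nr4a1, another such gene, was at 599 and 788 in these libraries against 130.05 to 296. Of 4 further immediate early genes, looked up after these values were seen and not a fixed list, Fosb and Junb were likewise highest in replicates 3 and 5. Arc had 32.7 to 82.8 normalised reads, with replicates 5 and 6 highest, and Npas4 was at most 8.28.

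A further set of genes was close to all or none between animals. Among 15359 genes with a mean of at least 20, 35 had a step of at least 5-fold between neighbouring values, 20 of them annotated as pseudogenes and 9 as protein-coding, where pseudogenes are 1.25% and protein-coding genes 89.8% of the 15359. None of the 35 was an odorant receptor, and receptors are 5.74% of the 15359, so little can be read from that count. In 16 of the 35, at least 2 libraries lay on each side. Gm44964, a processed pseudogene on chromosome 7, had no read in replicates 3 and 4 and 639 to 1458 normalised reads in the other replicates, and Gm45104 on the same chromosome was low in the same 2. Gm8730 on chromosome 8 had 604 and 969 in replicates 3 and 4 and 8.18 to 14.5 in the others. Gbp2b, an interferon-inducible GTPase, had 54.4 and 85.1 in replicates 1 and 2 and no read in replicates 3 to 6. Serpina3m, Crisp3, Klk1 and Hsd17b14 were among the protein-coding genes with such a step. The animals are of a mixed background, whose part in these steps was not tested. Processed pseudogenes share sequence with their parent genes, so their values are uncertain.

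Genes whose values followed Omp most closely over the 6 libraries were found among those with a mean of at least 100. Ckmt1, a mitochondrial creatine kinase, had a Pearson correlation of 0.998 with Omp on the log2(value + 1) scale, at 3190, 3111, 2983, 3758, 2963 and 2674 normalised reads. The next were Ndufa9 (0.992), Prpf3 (0.991), Actl6a (0.990), Rn18s-rs5 (0.985), Cpt1a, Lgmn, Abhd6, Urgcp and Vipas39. The other 16 genes of the mature neuron list had a median correlation of 0.535 with Omp, lower than these 10, which were picked from all genes for being highest. Replicate 4 is the highest library for Omp and for each of the 10. Without it, the correlations of the 10 lay between 0.936 and 0.994. With 6 points that share library depth and composition these are descriptions.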

How the data were processed

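RNA from olfactory mucosa was prepared with the Qiagen RNeasy kit and the Illumina TruSeq Stranded Total RNA kit after ribosomal depletion, per the labels' protocols. Per the submitters' processing notes, reads were aligned with STAR 2.6.0 to GRCm38.p6 and normalised with DESeq2. The counting program is not named in the sources at hand. The authors deposited a signal for each gene and library, read counts divided by a size factor, which is here called normalised reads, with their own p-value columns, which came from the authors' comparison of genotypes and served only to see how the table is ordered. Whole reads were recovered, since 100% of the deposited values are whole multiples of the smallest value of their library (tolerance 0.01 read).

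The table is ordered by the authors' p-value and its adjusted values imply 42312 genes, so that 2917 are not analysed here, nor is 1 incomplete row. Gene models were taken from GENCODE M21 by Ensembl identifier (39318 of the genes matched, 99.8%), and exon length is the union of exons. Python 3.11.15, pandas 2.3.3 and edgeR 4.0.16 (TMM factors only) were used. Replicate numbers follow the titles, and animals, not cells, are the replicates. Intervals and floors cover counting error only.

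Genes were taken in at a mean of at least 10. Members and lists were chosen with earlier results of these data known. Genes were named by rule: the highest by level (10) and per kilobase (20), the 4 highest of each marker list, the 10 highest receptors and 3 highest class I receptors, those nearest the limit, the 12 most variable and 10 steadiest, those standing apart in 1 library by 1.5-fold, the highest of each annotated type, the 10 most like Omp, and list members without reads. A few genes that fall under these rules are not reported here. Other named genes (Nqo1, Fosb, Junb, Arc, Npas4, Chil6, Kirrel2, the further lipocalin and BPI-fold genes, Klk1, Serpina3m, Crisp3, Hsd17b14, Gbp2b and the list members without the highest levels) were chosen after their values were seen. Class I receptors were taken as the Olfr genes between Rrm1 and Smpd1 on chromosome 7. The CV after subtracting counting error was tested on simulated data. The marker lists were planned on a scale on which each library sums to 1000000; the sums per kilobase printed first were added after the data were seen, since short RNA differs between libraries.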

Additional observations from a re-analysis of the deposited data

Results flagged for a closer look

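Among 282 sets of 6 values, 29 held a library standing apart from the other libraries by Dixon's gap test. Chance alone flags about 1 in 20 sets, but many of these genes were named because they vary or stand apart, and some shares overlap, so the count cannot be read against chance. Replicate 4 was that library in 16 of the 29, replicate 2 in 5, replicate 5 in 4, and replicates 1 and 6 in 2 each.

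In replicate 4, the 10 most abundant genes held 18.7% of the reads, the 50 most abundant 27.0% and the 100 most abundant 31.5%, against at most 15.2%, 22.7% and 27.3% in the other replicates. Genes of at least 10000 normalised reads held 31.9%, genes from 1000 to 10000 held 45.6%, and protein-coding genes held 81.0%. Rn18s-rs5 held 5.60% of the reads, with 915053 normalised reads, and the sum of all values per kilobase was 9746296. Lars2 stood at 57968 in that library, Mir6236 at 35162, Gm24187 at 14511, Gm15564 at 2528, Gm10736 at 782 and the elongation factor gene Eef1a1 at 52049. Actl6a stood at 856. The part of ribosomal depletion in these values was not tested.

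Single genes stood apart in other libraries. In replicate 5, Chil4 was at 1129, the protocadherin gene Pcdh10 at 1313 and Park2 at 269, all high, and the pseudogene Gm15920 was at 7.25, low. In replicate 2, Nup160 was at 997, the receptors Olfr1501 and Olfr844 at 173 and 26.2 and the Y-linked gene Kdm5d at 743, all high, and the antisense RNA 2810001G20Rik at 258 was low. In replicate 1, the short RNAs Gm25788 and Gm22748 were high at 211 and 392. In replicate 6, Insm1, a factor of neuronal precursors, was high at 1127, and the interferon-inducible GTPase gene Iigp1 at 226.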

How the results depend on the processing

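The recomputed values are counts, shares, sums and a CV, which have no direction. Of 335, 303 moved by less than the spread between replicates, or by less than 1.5 times for counts. For the median CV the yardstick was instead a standard error from leaving out each library in turn. In 186 of the 335, 1 library was left out. A mean over 6 libraries cannot move by the spread between replicates in that way, so nothing can be read from its staying. Shares of reads and list levels cannot move when whole libraries are rescaled. With reads scaled to the mean total or with TMM factors, 17285 and 17278 genes had a mean of at least 10, against 17225, of which 974 and 973 were receptors, against 971, and the median CV was 0.0987 and 0.0939. No paired analysis was possible because only the wild-type libraries were used and no groups were compared. Without genes of the mitochondrial chromosome, the 10 most abundant genes held 9.70% and the 100 most abundant 21.6% of the reads. As a share of reads on protein-coding genes, odorant receptors came to 0.782%. The median CV over genes, 0.0942 after subtracting counting error, was 0.127 as it stands, and it ran from 0.0765 without replicate 4 to 0.0978 without replicate 6, so that replicate 4 adds to it more than any other single library. With no length scaling the mature neuron list came to 14099 and the secreted list to 20557 on the scale summing to 1000000, and 19 of 24 lists moved; the secreted and sustentacular lists stayed first and second under each of the 3 other length or scaling choices. For the other values the cause of a move was not tested. Genes under 100 normalised reads are limited by depth, and 2917 genes of the authors' table are not analysed here.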

Other observations

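Several smaller cell populations and enzyme families were also measured. Olfactory ensheathing glia, which wrap the axons of the sensory neurons, were represented by Apod (6723 ± 840 normalised reads), Fabp7 (1484 ± 168) and Sox10 (312 ± 40.4). Their list of 8 genes differed 1.21-fold per kilobase between the highest and lowest library. Ionocyte and microvillar genes had a list span of 1.42-fold per kilobase. Cftr stood at 493 ± 66.4, Ascl3 at 323 ± 58.7, Foxi1 at 270.04 ± 46.7 and Trpm5, a channel of brush-type cells, at 144 ± 22.2. Horizontal basal cell keratins stood at 672 ± 87.9 for Krt5 and 359 ± 42.4 for Krt14. Genes of dividing cells were present in all libraries, with Mki67 at 1134, 1152, 766, 812, 1063 and 1099 and Top2a at 1770, 1651, 1383, 1429, 1482 and 1740, both lowest in replicates 3 and 4. Of the 9 genes of that list, for 4 these were the 2 lowest libraries, and Mcm2 was highest in replicate 4, at 317.

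Families of enzymes that handle odorants and foreign compounds differed in level. Of 110 cytochrome P450 genes listed, 38 had a mean of at least 10 (34.5%, against 43.7% of all genes listed), with a median of 141 normalised reads. Together the family held 1.30% ± 0.112 of the reads, more than the 0.663% of all odorant receptors. Most of these reads came from a few genes, led by Cyp2a5 (117071) and Cyp2g1 (46326). Of 18 UDP-glucuronosyltransferase genes listed, 4 were at 10 or more, and these 18 held 0.00655%. Ugt2a1, a member named in the sustentacular list, is not among the genes listed. The share therefore leaves it out and cannot be read as that of the whole family. Glutathione S-transferases, which attach glutathione to reactive compounds, held 0.154% ± 0.0149, with 15 of 18 genes at 10 or more. BPI-fold proteins held 1.06% ± 0.0812 and lipocalins 0.704% ± 0.352, the latter ranging from 0.228% to 1.13% between libraries. Of 52 clustered protocadherin genes, which give neurons distinct surface identities, 51 were at 10 or more, with a median of 83.4 normalised reads.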
